A study of Mus musculus with 7 samples.

Results

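The nuclear genes of respiratory chain complexes III to V were followed in RNA-seq counts of mouse cardiomyocytes, sorted on postnatal day 6 (P6) or 30 (P30), with 4 libraries of the younger age and 3 of the older. The 32 genes were taken by symbol from the 23337 rows of the count table, as subunits of the bc1 complex (complex III, 9 genes), cytochrome c (Cycs), oxidase subunits of complex IV that were listed as having a single isoform (6 genes), ATP synthase (complex V, 15 genes) and the ATP synthase inhibitor Atpif1. Both ages came from mice of genotype Rosa-Tom/Cas9 (Rosa-Tom or Rosa-Cas9, per the series design), and all received the virus AAV9-cTNT-Cre at P1. There was no group without virus, and age and time since the virus cannot be told apart. Which allele each mouse carried, and whether each library came from a separate animal, is not given in the sources used here; the tests therefore rest on a spread among libraries that may be technical. The labels also disagree on age, since their treatment text has cells collected at P14; the titles, age labels and series design, which give P6 or P30, were followed.

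In the inner mitochondrial membrane, the bc1 complex passes electrons from ubiquinol to cytochrome c, a small soluble haem protein, and cytochrome c oxidase hands them to oxygen. Both complexes pump protons, and ATP synthase lets the protons return through a rotating ring of c subunits that drives the catalytic F1 head. The heart depends on this pathway for most of its ATP, and in the weeks after birth mouse cardiomyocytes gain mitochondria and shift toward oxidative fuel use. All the genes treated here lie in the nucleus; the mitochondrially encoded core subunits of the same complexes were not analysed here.

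Of the 32 genes, all of which passed the filter on low counts, 4 were higher and 11 lower at P30, and 17 did not pass the test (quasi-likelihood test of edgeR with Benjamini-Hochberg adjustment over 12561 tested genes, threshold 0.05). Across all tested genes 26.3% were higher and 27.8% lower, and 54.1% were called in either direction, so the 15 called among the 32 were not above the background. The ages did not overlap in CPM for 15 of the 32 genes, against 56.6% of all tested genes. The 4 that rose were the core proteins Uqcrc1 and Uqcrc2 of the bc1 complex and the alpha and beta subunits of the F1 head, Atp5a1 and Atp5b. Those that fell include Cycs, Atpif1, 3 oxidase subunits and several small subunits of ATP synthase. The median log2 fold change was -0.34 over the 32 genes and -0.02 over all tested genes. With library totals in place of TMM scaling factors the median of all genes moved by -0.18, and the counts became 1 higher and 19 lower (2408 and 4658 over all tested genes, against 3307 and 3490 with TMM); relative to the median of all genes, that of the 32 lay at -0.32 under both scalings.

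Every library held the cardiomyocyte markers Tnnt2, Myh6, Actn2, Ryr2 and Pln. Their summed level was 51308 to 62645 CPM (counts scaled to TMM library size) at P6 and 77408 to 80157 CPM at P30. On average 2 of the 5, Myh6 and Ryr2, were higher at P30. Most of the sum was Myh6, with means of 33636 CPM at P6 and 57300 CPM at P30. Tnnt2, Actn2 and Pln had lower means at P30. Markers of other cells were present at far lower sums. All 5 endothelial markers were higher on average at P30 (sum 64.9 to 125 CPM at P6 and 223 to 462 CPM at P30), as were all 4 immune markers (1.90 to 3.17 and 7.03 to 21.7 CPM); 2 of 5 fibroblast markers and 2 of 4 of smooth muscle were higher, with overlapping sums of 48.9 to 139 and 49.9 to 144 CPM and of 928 to 2107 and 856 to 1729 CPM. Most of the smooth muscle sum was Acta2, with 915 to 2075 CPM at P6 and 806 to 1703 CPM at P30. Myh11, Tagln and Rgs5 had 2.80 to 34.4 CPM over all libraries. Of 4 erythroid markers, the 3 in the table gave 2.23 to 10.5 CPM at P6 and 0.701 to 4.01 CPM at P30, and Hba-a1 had no count in any library. The part of these cells in the results was not tested. In RNA of sorted cells, fewer cells of a type and less RNA per cell cannot be told apart. Total counts ran from 10594932 to 51427646 at P6 and from 15555469 to 19368717 at P30, so that 3 counts were worth 0.0553 to 0.271 CPM, while the least counted of the 32 genes stood above 13 CPM in every library.

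The calls of 4 genes held in all 13 alternative fits that were run: the rise of Uqcrc1 and the falls of Cox7c, Atp5k and Atpif1. Their upstream sequences are shown here with that of Cycs, a textbook target of NRF1. RefSeq (GRCm38.p6) gave 250 bases before a start site for 26 of the 32 genes, with Uqcrc2, Uqcrb, Uqcrq, Cyc1, Cox6c and Atp5a1 not matched. With motifs chosen after the counts were seen, the windows were searched on both strands for letters of factors known for control of respiratory genes: GCANGCGC for NRF1, CCGGAAG for the ETS family that includes GABP, TGACGTCA for CREB, AAGGTCA for the estrogen-related receptors and AAGATGGC for YY1. Capitals mark matches, and each sequence is the gene's own strand, 5′ to 3′, ending at most 20 bases inside the gene's annotated span. The windows are chr9:108936398-108936647 (plus strand) for Uqcrc1 and, on the minus strand, chr6:50566570-50566819 for Cycs, chr13:86046885-86047045 for Cox7c, chr5:108434429-108434649 for Atp5k and chr4:132535415-132535664 for Atpif1.
Uqcrc1: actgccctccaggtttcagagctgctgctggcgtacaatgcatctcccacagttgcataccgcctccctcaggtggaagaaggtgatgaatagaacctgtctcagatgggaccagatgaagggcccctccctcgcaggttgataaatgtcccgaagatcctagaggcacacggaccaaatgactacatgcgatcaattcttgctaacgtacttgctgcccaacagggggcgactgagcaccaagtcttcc
Cycs: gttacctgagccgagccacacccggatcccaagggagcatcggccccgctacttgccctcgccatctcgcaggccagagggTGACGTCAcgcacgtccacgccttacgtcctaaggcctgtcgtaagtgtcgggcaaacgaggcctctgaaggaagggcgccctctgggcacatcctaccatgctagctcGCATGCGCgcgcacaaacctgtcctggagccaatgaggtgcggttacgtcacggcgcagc
Cox7c: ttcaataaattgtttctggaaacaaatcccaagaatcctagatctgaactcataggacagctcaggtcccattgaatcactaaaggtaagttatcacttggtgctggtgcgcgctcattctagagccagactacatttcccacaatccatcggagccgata
Atp5k: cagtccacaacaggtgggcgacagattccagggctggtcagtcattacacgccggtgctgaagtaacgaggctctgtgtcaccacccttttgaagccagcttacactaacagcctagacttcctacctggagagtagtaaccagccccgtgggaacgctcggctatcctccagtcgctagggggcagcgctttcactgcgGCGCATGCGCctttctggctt
Atpif1: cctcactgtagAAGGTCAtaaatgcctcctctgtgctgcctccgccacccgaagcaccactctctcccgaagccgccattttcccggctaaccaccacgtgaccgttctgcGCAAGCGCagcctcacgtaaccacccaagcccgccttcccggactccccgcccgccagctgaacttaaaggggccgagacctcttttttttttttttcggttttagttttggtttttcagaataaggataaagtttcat

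Cycs held 1 NRF1 match and 1 CREB match. Atp5k held 2 NRF1 matches, 1 on each strand, which overlap in the palindrome GCGCATGCGC. Atpif1 held 1 match each for NRF1 and the estrogen-related receptors, in a RefSeq window that lies upstream of the gene's GENCODE span (132530555 to 132533659). Uqcrc1 and Cox7c held none of the 5. Over the 29 windows of the matched genes, NRF1 and ETS matches each occurred in 24.1%, against 10.3% and 8.98% of the windows of all protein-coding genes and 7.86% and 6.91% of all 32851 windows. The NRF1 matches were in Cycs, Atp5c1, Atp5h, Atp5g2, Atp5k, Atp5l and Atpif1, of which 5 fell and 2 did not pass the test. The ETS matches were in Uqcrh, Uqcr11, Cox6b1, Atp5e, Atp5h, Atp5j and Atp5l, of which 3 fell and 4 did not pass. For comparison, 11 of the 32 genes and 27.8% of all tested genes fell. Uqcrc2 and Atp5a1, which rose, had no window to search. Whether matches went with falls was not tested. CREB, estrogen-related receptor and YY1 matches were in 6.90%, 10.3% and 3.45% of these windows, against 1.55%, 4.08% and 1.56% of all windows. The RefSeq windows of Atp5d, Atp5f1, Atp5g2 and Atp5j2, and 1 of the 2 of Atp5j, lie wholly inside the gene's GENCODE span. The NRF1 matches of Atp5g2 and the ETS and YY1 matches of Atp5j come from such windows. A match is a run of letters and no evidence of binding.

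**Figure D1:**
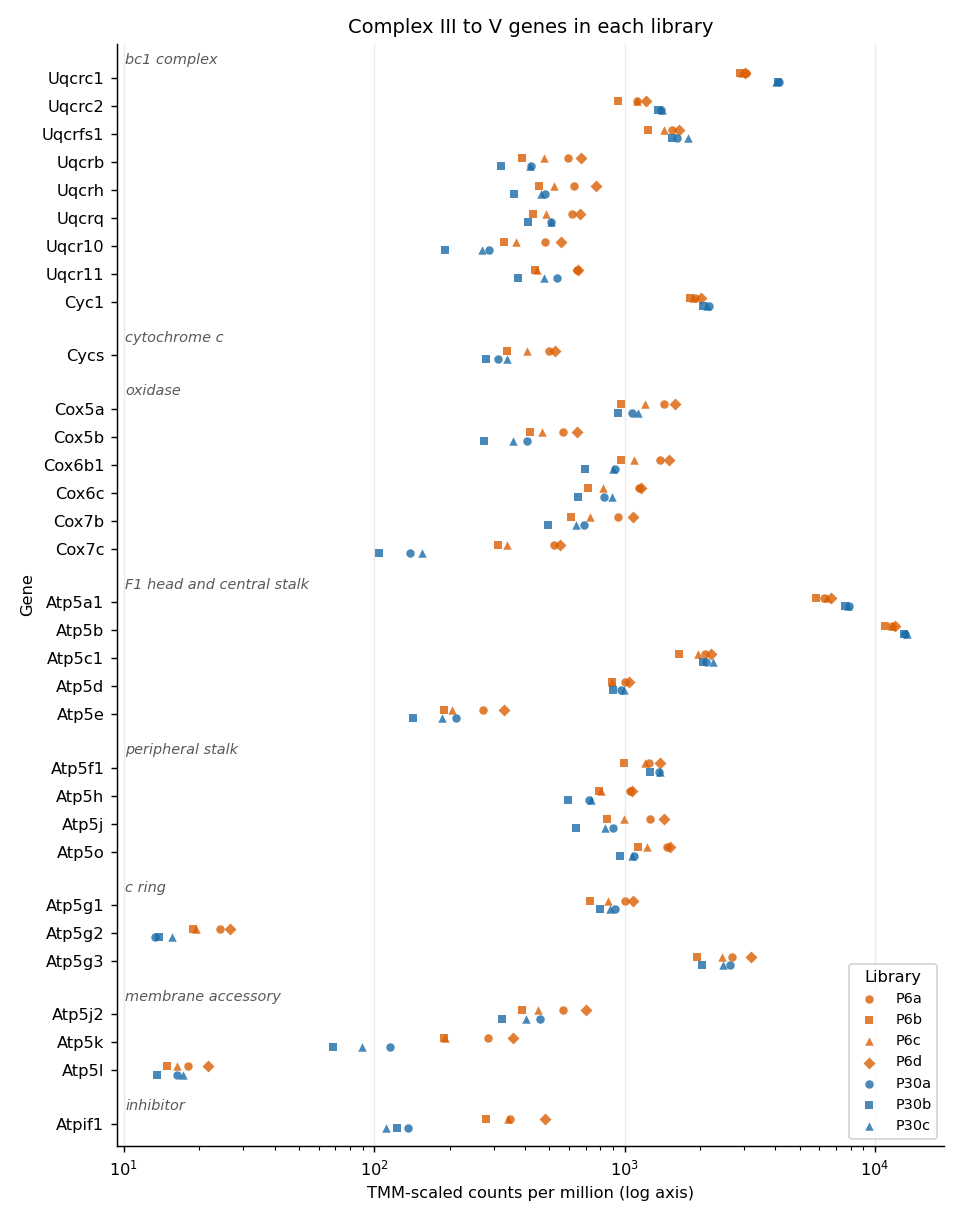
TMM-scaled CPM (log axis) of each of the 32 genes, grouped by role, in the 4 P6 libraries (orange) and 3 P30 libraries (blue), with 1 symbol per library. The ages lie apart for Uqcrc1, Cox7c, Atp5k and Atpif1, and in most rows P6d is the highest and P6b the lowest of the P6 libraries.

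In the bc1 complex, 2 of 9 genes rose, 1 fell and 6 did not pass, where 26.3% of all tested genes rose and 27.8% fell. Uqcrc1, a large core protein on the matrix side (chromosome 9, 108936633 to 108949623, plus strand, GRCm38), had 3043, 2884, 2934 and 3015 CPM in the P6 libraries a to d and 4122, 4115 and 4033 CPM in the P30 libraries a to c. Libraries are given in this order throughout. The ages did not overlap, and the spread within each was small. The log2 fold change was 0.46 ± 0.07 (SE), with an edgeR adjusted p of 0.000357. Its partner core protein Uqcrc2 averaged 1102 ± 113 CPM (SD over 4 libraries) at P6 and 1393 ± 24.6 CPM (SD over 3) at P30. It rose by 0.34 ± 0.09 on the log2 scale, a call lost with library totals (0.16, edgeR adjusted p = 0.116).

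Uqcr10, a small membrane subunit, had 480, 330, 370 and 556 CPM at P6 and 286, 192 and 268 CPM at P30. All P30 libraries were below all P6 libraries, though P30a was near P6b. It fell by 0.80 ± 0.20 on the log2 scale (edgeR adjusted p = 0.00694). The electron-carrying subunits did not pass: the Rieske iron-sulfur protein Uqcrfs1 had a log2 fold change of 0.17 ± 0.11 and cytochrome c1 (Cyc1) of 0.15 ± 0.07, with a 95% interval of -0.01 to 0.32. For Cyc1 the ages did not overlap, with 1912 ± 84.1 and 2125 ± 57.4 CPM. The remaining small subunits had negative values that did not pass: Uqcrb (-0.45 ± 0.18), Uqcrh, the hinge protein that faces cytochrome c (-0.44 ± 0.18), Uqcrq (-0.21 ± 0.15) and Uqcr11 (-0.23 ± 0.18). The edgeR adjusted p of Uqcrb and Uqcrh was 0.0592 and 0.0564, and both passed without P6b (0.00981 and 0.0150).

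Cytochrome c, encoded by Cycs (chromosome 6, 50562563 to 50566538, minus strand), fell while its docking partner Cyc1 did not. Cycs had 499, 341, 408 and 527 CPM at P6 and 314, 279 and 339 CPM at P30. The ages did not overlap, but P30c lay just below P6b. The log2 fold change was -0.51 ± 0.15 (edgeR adjusted p = 0.0157), and the call was lost without P30b (0.0670). Against Cyc1 in the same library, there were 26.1, 18.6, 21.7 and 25.98 Cycs counts per 100 Cyc1 counts at P6 and 14.4, 13.5 and 15.9 at P30. This ratio, which does not depend on library scaling, had an exact two-sided permutation p of 0.0571, or 0.0952 after adjustment over the 5 ratios computed, and so did not pass.

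Of the 6 oxidase genes, 3 fell, 3 did not pass and none rose, against 27.8% lower and 26.3% higher among all tested genes. Cox7c, a small membrane-spanning subunit (chromosome 13, 86044816 to 86046904, minus strand), had 524, 313, 338 and 553 CPM at P6 and 140, 104 and 155 CPM at P30. The ages lay far apart, with every P30 library well below P6b, the lowest at P6. It fell by 1.70 ± 0.23 on the log2 scale (edgeR adjusted p = 0.000232), with values of -1.83 to -1.55 when any 1 library was left out. Another annotated gene, Gm10012, has a transcript near-identical to that of Cox7c (at least 95% identity over at least 50% of its length), so reads could be split between them. Cox5b, a zinc-binding subunit on the matrix side, and Cox6b1, on the intermembrane side, fell by 0.60 ± 0.17 and 0.57 ± 0.16, and both calls were lost without P30b (edgeR adjusted p of 0.0615 and 0.0669). Cox5a, the most counted of the 6, had 1436, 964, 1209 and 1597 CPM at P6 and 1073, 941 and 1137 CPM at P30. These ranges overlap, and the log2 fold change of -0.31 ± 0.16 did not pass. Cox6c (-0.29 ± 0.18) and Cox7b (-0.46 ± 0.19) did not pass either, though Cox5a and Cox7b did without P6b (edgeR adjusted p of 0.0123 and 0.0141).

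In the F1 head of ATP synthase 2 of 5 genes rose, Atp5a1 1.24-fold and Atp5b 1.14-fold, and 3 did not pass. Among all tested genes 26.3% rose. Atp5b, the beta subunit that holds the catalytic sites, had 11722, 11022, 11749 and 12045 CPM at P6 and 13243, 13105 and 13418 CPM at P30, and Atp5a1, the alpha subunit, had 6276, 5818, 6423 and 6663 CPM and 7889, 7621 and 7829 CPM. In both genes every P30 library was above every P6 library. The log2 fold changes were 0.19 ± 0.07 and 0.31 ± 0.07 (edgeR adjusted p of 0.0367 and 0.00598). Both calls were lost with library totals, with values of 0.01 and 0.13, and that of Atp5b also without any of P6a, P6c, P30a, P30b and P30c (adjusted p up to 0.103) and without the filter on low counts (0.113). The rotor shaft did not pass: Atp5c1 (gamma) had a log2 fold change of 0.11 ± 0.11, Atp5d (delta) of 0.00 ± 0.09 with a 95% interval of -0.20 to 0.19, and Atp5e (epsilon) of -0.46 ± 0.20. Atp5e passed as lower without P6b (edgeR adjusted p = 0.0301).

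The peripheral stalk, which holds the head against rotation, gave 3 falls among 4 genes. Falls were found in 27.8% of all tested genes. They were found in 43.4% of other tested genes of 600 to under 1000 bases, the length class of these 3. Atp5j, coupling factor F6, had 1266, 853, 992 and 1442 CPM at P6 and 903, 643 and 835 CPM at P30; P30a was above P6b, so the ages overlapped. It fell by 0.52 ± 0.18 on the log2 scale (edgeR adjusted p = 0.0371), a call lost without any of P6a, P6d, P30b and P30c (up to 0.141). Atp5h (subunit d) and Atp5o (the OSCP subunit that caps the head) fell by 0.44 ± 0.14 and 0.37 ± 0.12. Both calls were lost without P6a and without P30b (edgeR adjusted p up to 0.0876 and 0.0922). By the measure given for Cox7c, 4 other annotated genes share transcript sequence with Atp5h and 2, Donson and Gm5436, with Atp5o. Atp5f1 (subunit b), with the highest mean of the stalk over all 7 libraries although Atp5o was above it in each P6 library, had 1249, 998.7, 1202 and 1383 CPM at P6 and 1376, 1264 and 1391 CPM at P30. The ages overlapped and its log2 fold change of 0.15 ± 0.11 did not pass.

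The c ring is built from a single mature protein that 3 genes encode with different mitochondrial import sequences. Atp5g3 had 2687, 1957, 2454 and 3200 CPM at P6 and 2630, 2032 and 2479 CPM at P30. Atp5g1 had 1002, 731, 860 and 1082 CPM and 915, 797 and 876 CPM. In both genes the P30 range lay inside the P6 range, and the log2 fold changes of -0.11 ± 0.16 and -0.09 ± 0.13 did not pass. Atp5g2 had 24.2, 18.8, 19.5 and 26.5 CPM at P6 and 13.3, 13.8 and 15.6 CPM at P30, with no overlap, and fell by 0.63 ± 0.16 (edgeR adjusted p = 0.00672). Of the counts of the 3 genes, not scaled by length, Atp5g1 held 26.2% ± 0.932 (SD, n = 4) at P6 and 26.6% ± 1.26 (SD, n = 3) at P30, with an exact permutation p of 0.686. Atp5g2 held 0.636% ± 0.0474 and 0.441% ± 0.0601 (exact permutation p = 0.0286, the smallest that the 35 divisions into 4 and 3 allow, and 0.0714 adjusted over the 5 ratios). The mouse annotation has 2 other genes with transcripts at least 95% identical to Atp5g2 over at least 50% of its length, so its low count is uncertain.

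Among the membrane subunits where ATP synthase dimers meet, Atp5k (subunit e; chromosome 5, 108433244 to 108434448, minus strand) fell, and Atp5j2 and Atp5l did not pass. Atp5k had 285, 190, 192 and 359 CPM at P6 and 116, 68.6 and 89.7 CPM at P30. The ages did not overlap, and P6d was the highest library. It fell by 1.48 ± 0.26 (edgeR adjusted p = 0.000949); a pseudogene, Atp5k-ps2, is near-identical to it. Atp5j2 (subunit f), the most counted of these, had 570, 388, 451 and 700 CPM at P6 and 458, 323 and 404 CPM at P30, an overlapping range, with a log2 fold change of -0.41 ± 0.20; it passed as lower without P6b (edgeR adjusted p = 0.0271). Atp5l (subunit g) had 13.6 to 21.7 CPM over all libraries and a log2 fold change of -0.17 ± 0.16; 9 other genes share its sequence by the same measure, so its low count is uncertain.

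Atpif1 encodes IF1, the small protein that binds the F1 head and blocks ATP hydrolysis when the proton gradient collapses. Its transcript had 348, 280, 341 and 480 CPM at P6 and 136, 123 and 111 CPM at P30. The ages lay far apart, and the P30 libraries were close to each other. It fell by 1.55 ± 0.17 on the log2 scale, with an edgeR adjusted p of 7.29e-05, the lowest among the 32 genes. Per 100 Atp5b counts of the same library there were 2.97, 2.54, 2.90 and 3.98 Atpif1 counts at P6 and 1.03, 0.941 and 0.8286 at P30, a 3.32-fold lower mean at P30 (exact permutation p = 0.0286, the smallest possible, and 0.0714 adjusted over the 5 ratios). The gene's span overlaps 1 other annotated gene, Gm12999; 10 of the 32 genes overlap another gene in this way, and the strand setting of the counting is not given in the sources used here.

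**Figure D2:**
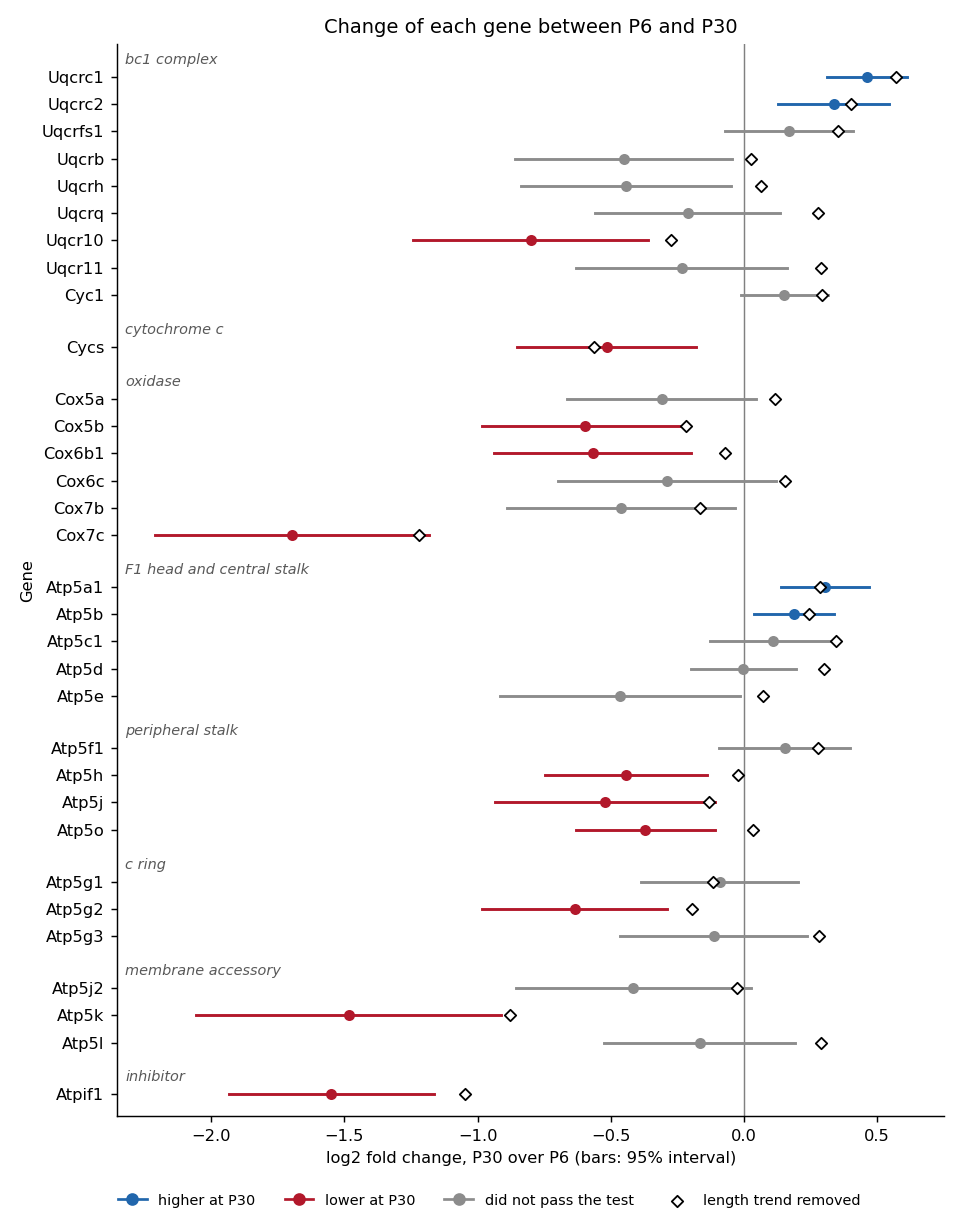
Log2 fold change (P30 over P6) of each gene with its 95% interval, not adjusted for the number of genes, coloured by the adjusted call; open diamonds give the value once each library's trend with transcript length was removed. The diamonds of Cox7c, Atp5k, Atpif1 and Cycs stay below -0.5, whereas those of the other genes that fell lie between -0.27 and 0.035.

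The direction of change went with transcript length. The measure used, chosen after the counts were seen, was the median length of a gene's annotated coding transcripts (GENCODE M21), which is wide for Atp5g1 (596 to 4715 bases) and Uqcrq (405 to 1521 bases). Among the 12 genes under 600 bases, 6 fell and none rose, and among the 9 from 600 to under 1000 bases, 4 fell and none rose. Of the 11 genes with 1000 bases or more, 4 rose and 1, Cycs, fell. The median log2 fold changes were -0.52, -0.37 and 0.15. Other tested genes in the same length classes had medians of -0.62, -0.33 and 0.02, with 46.0%, 43.4% and 26.3% lower and 4.81%, 13.9% and 27.6% higher. Other genes with a mean of at least 100 CPM, a level that 30 of the 32 genes reached, numbered 23, 112 and 1484. Of them, 39.1%, 35.7% and 23% were lower and 8.7%, 21.4% and 40% higher. Their medians were -0.33, -0.08 and 0.11. The medians of the short classes of the 32 genes lay below these, a difference that was not tested. Across the 32 genes the Spearman correlation of log2 fold change with length was 0.65, and across 12439 tested genes with a length it was 0.19; genes share libraries and depth and are not independent.

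Removing a smooth length trend from each library changed the picture, since it takes out any difference that genes of like length share, whatever its source. In that fit 12 of the 32 genes were higher and 4 were lower, with a median log2 fold change of 0.07. Over all 12561 tested genes, 3329 were higher and 3538 lower in the same fit, with a median of -0.01. The 4 lower genes were Cox7c (-1.22), Atpif1 (-1.05), Atp5k (-0.88) and Cycs (-0.56), each with an edgeR adjusted p under 0.05. The 12 higher ones were Uqcrc1, Uqcrc2, Uqcrfs1, Cyc1, Uqcrq, Uqcr11, Atp5a1, Atp5b, Atp5c1, Atp5d, Atp5f1 and Atp5g3, with values between 0.25 and 0.57. Of the genes that fell in the main comparison, Uqcr10, Cox5b, Cox6b1, Atp5h, Atp5j and Atp5g2 kept a negative value that did not pass, and Atp5o moved to 0.035.

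**Figure D3:**
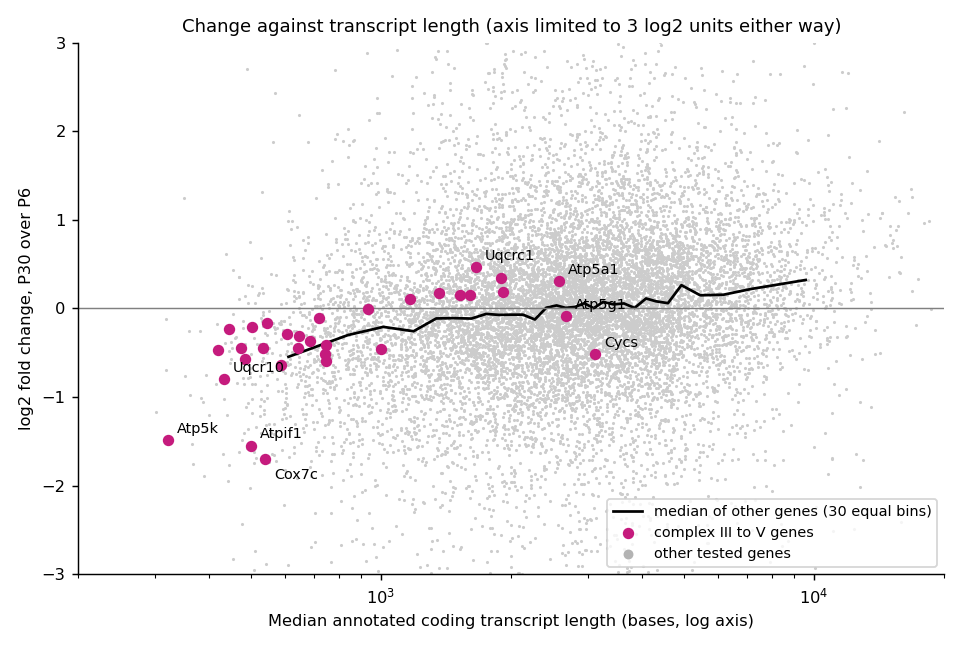
Log2 fold change (P30 over P6) against median coding transcript length (log axis) for the 32 genes (magenta) and all other tested genes (grey), with the running median of the latter as a line. Genes with short transcripts lie mostly below 0 and those of 1000 bases or more mostly above it, with Cycs, Cox7b and Atp5g1 below it.

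The genes also moved together within an age. In 29 of 32 genes both P6a and P6d were above both P6b and P6c, an order seen in 17.8% of other tested genes and in 53.8% of those under 1000 bases. P6d was the highest P6 library in 31 genes and P6b the lowest in 31, and P30b was the lowest P30 library in 29. Other tested genes showed these in 27.6%, 30.6% and 35.7%, and those under 1000 bases in 55.9%, 58.3% and 53.2%. P6a and P6d were the P6 libraries with the fewest counts. The summed counts of the 21 genes under 1000 bases were 54.2, 43.2, 45.0 and 57.7 per 100 counts of the 11 longer genes at P6 and 35.9, 29.2 and 34.6 at P30. Among all other tested genes, those under 1000 bases made up 12.2%, 10.2%, 10.9% and 12.9% of counts at P6 and 9.78%, 9.24% and 10.1% at P30, in the same order of libraries within P6. The 5 F1 genes together, of which Atp5b and Atp5a1 were the most counted, held 2.26% of all counts in each P30 library. At P6 they held 2.23%, 2.14%, 2.24% and 2.29%, with P6d again the highest and P6b the lowest. The part of depth and of this short-transcript share in the falls was not tested.

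**Figure D4:**
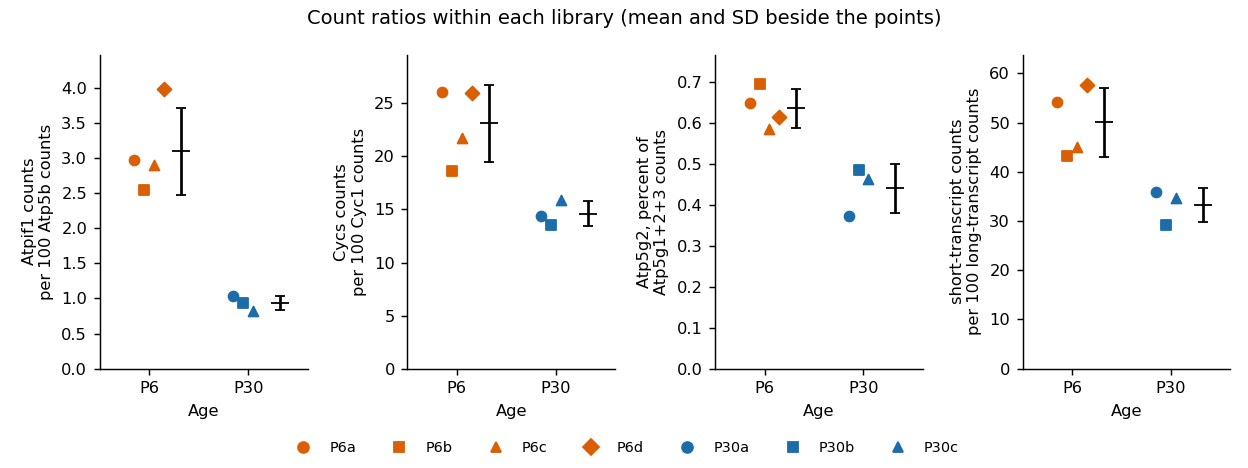
Count ratios within each library at P6 (orange) and P30 (blue), with 1 symbol per library and the mean and SD in black: Atpif1 per 100 Atp5b, Cycs per 100 Cyc1, the share of Atp5g2 among Atp5g1, Atp5g2 and Atp5g3, and counts of the 21 short against the 11 long genes. All 4 ratios are lower in every P30 library than in every P6 library.

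Other genes of the pathway, listed by function, did not move as a block. Among all tested genes 26.3% were higher and 27.8% lower, and whether the lists differed from this was not tested. Of the 4 subunits of complex II, which feeds ubiquinol to the bc1 complex, the catalytic pair rose: Sdhb from 1129 ± 132 to 1825 ± 30.0 CPM and Sdha from 2714 ± 148 to 4007 ± 449 CPM. The membrane anchors Sdhc (-0.23 ± 0.11) and Sdhd (-0.16 ± 0.09) did not pass. Of 7 genes for bc1 assembly and haem attachment, 2 rose and 1 fell. Bcs1l, which inserts the Rieske protein, rose from 26.7 ± 1.70 to 59.3 ± 3.80 CPM, and Uqcc1, an assembly factor, from 163 ± 8.27 to 331 ± 11.1 CPM. Hccs, the lyase that attaches haem to cytochromes c and c1, fell by 0.61 ± 0.11 on the log2 scale (edgeR adjusted p = 0.00155); it was named after its value was seen.

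Of 19 tested oxidase assembly genes out of 21 listed, 3 rose and 6 fell, where 26.3% and 27.8% of all tested genes did. Sco2 and Pet117 had no count. The largest changes were in Cox20, a chaperone of oxidase subunit assembly, which fell from 101 ± 29.1 to 32.7 ± 6.35 CPM, and Cox17, the copper chaperone, from 130 ± 40.9 to 57.0 ± 10.1 CPM. Among 3 supercomplex factors 1 fell, Higd2a, by 0.55 ± 0.13. Of 5 ATP synthase assembly and associated genes, the F1 assembly factor Atpaf1 rose from 17.7 ± 0.528 to 31.1 ± 0.846 CPM and Usmg5, a small membrane subunit that was not in the list of 32, fell from 336 ± 111 to 170 ± 40.1 CPM. The calls of Higd2a and Usmg5 were lost with the length trend removed (edgeR adjusted p of 0.168 and 0.0652).

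The authors' deposited table, a DESeq2 comparison of the ages, called 4 of the 32 genes higher and 13 lower at an adjusted p under 0.05. It gave log2 fold changes of 0.48 for Uqcrc1, -1.68 for Cox7c, -1.47 for Atp5k and -1.53 for Atpif1. In the authors' deposited table Uqcrb and Uqcrh passed too, with adjusted p of 0.0460 and 0.0448. Calls were common among all genes. DESeq2, run here on the deposited counts, called 3651 of 16500 tested genes higher and 3428 lower. Whether the 32 genes stood apart from that background was not tested.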

How the data were processed

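RNA of sorted cells was made into SMART-Seq v4 and Nextera XT libraries, per the labels' protocols, and sequenced on a NextSeq500, per the series design. The authors deposited raw counts of reads on genes. Tools named are CASAVA 1.8, STAR 2.5.3a, Subread 1.5.2 with featureCounts and the build mm10, per the submitters' processing notes; annotation, strand setting and treatment of multi-mapping reads were not given there. The deposited table of the age comparison came from DESeq2 (version not given): its baseMean is a signal, the mean of scaled counts, its effects with standard errors are log2 values, its Wald statistic is a score, and its p-value columns are raw and adjusted, all deposited by the authors. Its sign was P30 over P6 in 100% of genes that changed over 2-fold. Count columns carry letters that match no title number, so they were grouped by age alone.

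The test was edgeR 4.0.16's quasi-likelihood fit without covariates, after filterByExpr on age and TMM scaling, under R 4.3.3, with adjustment over 12561 genes. The procedure was tested on simulated data with known changes. The SE is the absolute log2 fold change over the square root of F, and intervals are 95%. Ratios of raw counts were compared by exact permutation of the difference of means (scipy 1.17.1); the two-sided p is the share of divisions with an absolute difference at least as large, adopted after doubling a tail, which cannot reach 0.05 here, had been tried. Lengths, positions and transcripts that share near-identical sequence (BLAST 2.17.0) came from GENCODE M21 (GRCm38). No 2 libraries agreed within sampling noise (chi-square per gene of at least 13.0). Alternatives were median-of-ratios factors, library totals, no filter, DESeq2 1.42.0, removal of each library's length trend (natural spline with 5 degrees of freedom), the column letter as a block, and each library left out. Genes given with values in every library are, for each role, the most counted and the called genes with the largest rise and fall, with Cycs, the c ring genes and Atpif1; of other pathway lists, the 2 largest called changes. The genes and lists were chosen with earlier results of these data known.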

Additional observations from a re-analysis of the deposited data

How the results depend on the processing

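The counts of called genes depended on scaling, on length and on single libraries. With library totals 1 of the 32 genes was higher and 19 lower, split as 1 and 4 in the bc1 complex, 0 higher and 7 lower in ATP synthase, and 6 lower in the oxidase; over all tested genes 2408 were higher and 4658 lower. With the length trend removed 12 of the 32 genes were higher and 4 lower, against 3329 and 3538 over all tested genes. In the bc1 complex 6 genes were higher and 0 lower, and in the oxidase 1 was lower. ATP synthase had 6 higher and 1 lower. In that fit 11 genes turned from negative to positive log2 fold changes: Uqcrq (0.28), Uqcr11 (0.29), Atp5d (0.30), Atp5g3 (0.28), Atp5o (0.035), Atp5l (0.29), Cox6c (0.16), Cox5a (0.12), Atp5e (0.07), Uqcrh (0.06) and Uqcrb (0.03), of which the first 4 passed as higher. Without a filter on low counts 3 bc1 genes were lower and 1 ATP synthase gene higher, and with DESeq2 3 bc1 genes were lower. Over all tested genes, 3831 of 19954 were higher and 3465 lower without the filter. With DESeq2 these were 3651 of 16500 and 3428. With the replicate block by column letter 3 bc1 genes were lower and 4 of the 32 higher and 15 lower. Letter d occurs only at P6, so P6d adds nothing to the age difference in that fit. Over all tested genes that fit called 2895 higher and 3077 lower. The letters share no stated source. Deviations of same-letter libraries correlated at -0.10, 0.09 and -0.20 for a, b and c, so the letters were not taken as pairs. With 1 library left out, 3 to 4 of the 32 genes were higher and 5 (without P30b) to 17 (without P6b) lower. By complex, 1 to 3 bc1, 1 to 5 oxidase and 2 to 7 ATP synthase genes were lower, and 1 to 2 ATP synthase genes higher. Over all tested genes, 2813 were higher and 2885 lower without P30b, and 3460 and 3577 without P6b. Leaving out a library changed no call on the 5 ratios, none of which passed with all 7 libraries; their smallest adjusted p with 1 left out was 0.111, and those designs cannot reach 0.05. Median-of-ratios factors changed no call among the 32 genes. Dixon's test, run on the 4 P6 values of 1 measure at a time, flagged none of 37 measures, and P30 was not tested. It cannot see a library that is shifted alike in many genes. P6d was the highest P6 library in 31 of the 32 genes and P6b the lowest in 31. All 32 genes stood far above the level of 3 counts in every library; the part of depth in their differences was not tested.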
